A study of Mus musculus with 17 samples.

Results

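The samples compared here were the 5 preneoplastic colon samples of a series of 17, taken by the stage given in their titles: 3 from Kit-B6 mice and 2 from Kit-W/sh mice. All 5 were collected at postnatal week 14, and the mice of both groups had received 3 intraperitoneal injections of azoxymethane, a colon carcinogen of rodents, over 3 weeks and were killed 3 weeks after the last of them. Kit-B6 mice are C57BL/6 animals with an intact Kit locus, and Kit-W/sh (W-sash) mice carry an inversion upstream of Kit that disturbs its expression in some cell types and leaves adult animals without most of their mast cells. The inversion spares the Kit coding sequence and also lowers Kit in cells other than mast cells, melanocytes among them, so the genotype is a model of mast cell loss and of altered Kit at once. No group without azoxymethane, and no mouse with mast cells restored, was analysed here. The other 12 samples were colon tumors, 6 of each genotype, at postnatal week 32 after 6 injections over 6 weeks and another 18 weeks, and they enter 1 comparison at the end. Transcripts of 988 genes were counted with a targeted immuno-oncology amplicon panel, and every one of these genes was compared between the genotypes, with 777 of them reaching the count minimum for testing.

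Mast cells are tissue-resident leukocytes that depend on stem cell factor and its receptor Kit, and that store histamine and proteases in their granules. Epithelial cells and leukocytes of the gut keep a low level of interferon signalling, in which receptors for viral and bacterial nucleic acids or for interferons activate IRF and STAT transcription factors, and these switch on antiviral effector genes such as the oligoadenylate synthetases. A separate inflammatory route runs through NF-kB and STAT3, and its targets in the colon epithelium include chemokines that bind CXCR2 on neutrophils.

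The level of Kit was first compared with the genotype labels. Kit was at 239, 305 and 464 CPM (counts scaled to a common library size and composition) in Kit-B6 samples 1 to 3 and at 111 and 99.0 CPM in Kit-W/sh samples 1 and 2, without overlap. The log2 fold change, given throughout as Kit-W/sh minus Kit-B6 with its standard error (SE), was -1.68 ± 0.35, with an edgeR quasi-likelihood adjusted p of 0.2535. On mean log2(CPM + 1) the difference was -1.62, with an exact two-sided permutation p = 0.1, the smallest that 3 against 2 samples allow. Kit passed the adjusted threshold without Kit-B6 sample 1 (-1.88, edgeR adjusted p = 0.0403), which adds no support because that sample was left out for lying near the Kit-W/sh samples. Granule genes of mast cells were near or at 0 in both genotypes. The carboxypeptidase Cpa3 gave 3, 6 and 1 counts in Kit-B6 and 0 and 0 counts in Kit-W/sh, and the IgE receptor chain Ms4a2 gave 2, 1 and 3 counts against 0 and 0, while 3 counts in a library corresponded to 3.68 to 4.87 CPM. The tryptase Tpsab1 had 0 counts in all 5 libraries. The tryptase Tpsb2 (5, 8 and 17 against 4 and 7 counts), the chymase Cma1 (9, 14 and 0 against 8 and 7) and Hdc, the enzyme that makes histamine (7, 4 and 7 against 4 and 12), had counts in both genotypes and overlapped. Gata2 (-0.24 ± 0.57) and the prostaglandin D synthase Hpgds (-0.05 ± 0.31), both also made outside mast cells, overlapped too, and both changed sign without Kit-B6 sample 1. At this depth Kit was the only gene of the mast cell list that separated the genotypes well above the floor of 3 counts. Kit was equally counted here as a gene of melanocytes and of interstitial cells of Cajal. The other tested gene of those cells, Pmel, had a log2 fold change of 0.12. Which cells the Kit counts came from was not tested, so the lower Kit cannot be assigned to mast cells. Cpa3 and Ms4a2 were not tested, and their separation rests on as little as 1 count against 0. Groups without overlap were found for 29.3% of all genes tested. Smooth muscle and enteric neuron markers had no gene on the panel, and Epcam, the epithelial adhesion molecule, was at 26880, 21970 and 23260 CPM against 25600 and 24000 CPM (0.04 ± 0.20, with a sign that flips under scaling by 2 reference genes, to -0.02).

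Library totals were 654227, 616009 and 703549 counts in Kit-B6 and 621141 and 815973 counts in Kit-W/sh, and 886 to 904 genes had a count in each library. Kit-B6 sample 1 stood apart from the other Kit-B6 samples. The root mean square log2 distance between the Kit-W/sh samples was 0.502, and Kit-B6 sample 1 lay 0.719 and 0.607 from them, nearer than its distances of 1.046 and 0.828 to Kit-B6 samples 2 and 3. On the first principal component, with 57.2% of the variance, it lay at -8.61 beside the Kit-W/sh samples at -8.5 and -9.52, while Kit-B6 samples 2 and 3 lay at 16.28 and 10.35. B cell genes divided the samples in the same way: their mean log2(CPM + 1) was 5.19, 8.34 and 7.02 in the Kit-B6 libraries and 5.74 and 5.08 in the Kit-W/sh libraries. The calls made without this library are therefore given beside those made with it. It was singled out because it lay near the Kit-W/sh samples, so leaving it out by itself widens the genotype difference. Calls made without it are thus a description and no added support. Without Kit-B6 sample 2 edgeR called 1 gene, and without Kit-B6 sample 3 it called 0. The labels did not say that each sample came from another mouse, so the p-values reflect only sample-to-sample spread, part of which may be technical. In bulk tissue, fewer cells of a type and less RNA per cell cannot be told apart, and levels of different amplicons are not comparable between genes.

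Over all 777 genes tested, the panel did not shift as a whole: 397 genes (51.1%) averaged lower in Kit-W/sh, and the median log2 fold change was -0.01. edgeR called 1 gene, lower in Kit-W/sh (0.129% of those tested, and 0% on the higher side). An unadjusted p under 0.05 was reached by 83 genes (10.7%), 52 lower (6.69%) and 31 higher (3.99%), where 39 would be expected by chance. Genes vary together over so few libraries, so the count can lie far from 39 by chance, and its excess was not tested. It was 179, 71 and 47 without Kit-B6 samples 1, 2 and 3. The groups did not overlap for 228 genes (29.3%), of which 111 were lower (14.3%) and 117 higher (15.1%) in Kit-W/sh. DESeq2, the other count model that was run, called 20 of 936 genes (2.14%), 17 lower (1.82%) and 3 higher (0.321%). Without Kit-B6 sample 1, edgeR called 16 of 773 genes (2.07%), 15 lower and 1 higher. The lower ones were Oas2 (-3.43), Oas3 (-3.04), Irf7 (-2.17), Tmigd1 (-3.01), Lgals9 (-1.48), Oasl1 (-1.53), Emp1 (-3.01), Ceacam12 (-2.89), H2-T24 (-2.86), Bst2 (-1.93), Sp100 (-1.57), H2-Eb2 (-3.45), Oas1b (-1.64), Kit (-1.88) and Trex1 (-1.003), the higher one was Il18 (1.64), and their edgeR adjusted p ran from 0.00044 to 0.0446. In the fit of all 5 libraries edgeR called Irf7 alone, so every other difference below missed its adjusted threshold there. Counts of genes at an unadjusted p under 0.05 or without overlap are to be read against these shares.

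**Figure D1:**
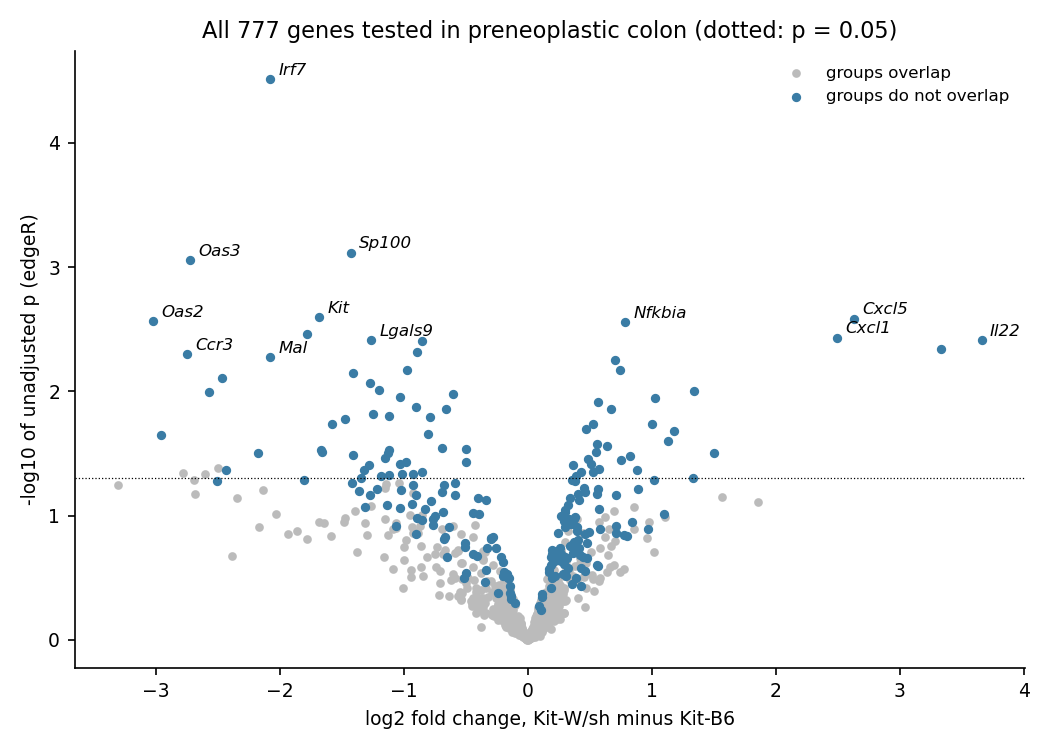
Each point is 1 of the 777 genes tested, with the log2 fold change of Kit-W/sh over Kit-B6 preneoplastic colon (2 and 3 samples) on the x axis and -log10 of the unadjusted edgeR p on the y axis; blue points are the 228 genes whose groups do not overlap. Irf7 stands highest, at a log2 fold change of -2.07, and the genes farthest to the right are Il22 (3.66), Cxcl2 (3.33), Cxcl5 (2.63) and Cxcl1 (2.49).

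Many interferon-induced genes had a lower mean in Kit-W/sh, and the gene that edgeR called was one of them. Irf7, a transcription factor that drives the amplification loop of type I interferon and is itself interferon-induced, was at 3434, 4037 and 4469 CPM in the Kit-B6 and at 872 and 1018 CPM in the Kit-W/sh samples. Both Kit-W/sh samples were far below every Kit-B6 sample, and Irf7 fell by 2.07 ± 0.20 on the log2 scale (edgeR adjusted p = 0.0237). The call was also made by DESeq2 (adjusted p = 4.013e-18), and it ended without Kit-B6 sample 3 (adjusted p = 0.166), without Kit-W/sh sample 1 (0.767) and without Kit-W/sh sample 2 (0.436), while the log2 fold change stayed between -2.21 and -1.99. It also ended without scaling factors (adjusted p = 0.0553), in the fit of all 17 libraries (0.489) and with the sample number as a block (0.783).

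The oligoadenylate synthetases, which sense double-stranded RNA and activate the nuclease RNase L, held the 2 lowest fold changes among the tested interferon-induced genes, those of Oas2 and Oas3. Oas2 was at 335, 1272 and 1323 CPM in the Kit-B6 and at 120 and 121 CPM in the Kit-W/sh samples (-3.02 ± 0.63), and Oas3 was at 441, 999 and 1153 against 150 and 112 CPM (-2.72 ± 0.46). Oas1b differed by -1.41 ± 0.36, the synthetase-like Oasl1 by -1.27 ± 0.34 and Oas1a by -1.20 ± 0.33, each without overlap, and Oas1g (-0.69 ± 0.31) and Oas1c (-0.68 ± 0.29) were smaller and did not reach an unadjusted p of 0.05. In all of these genes Kit-B6 sample 1 was the lowest of the Kit-B6 samples and still lay above both Kit-W/sh samples. Amplicons of the closely related Oas1 genes may capture one another's reads, so the single members are uncertain. DESeq2 called Oas2, Oas3, Oas1b and Oasl1. The same 4 were called by edgeR without Kit-B6 sample 1, which adds no support because leaving that sample out by itself widens the difference.

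Other interferon-induced effectors and regulators lay on the same side. Sp100, a component of nuclear bodies, was at 1107, 1780 and 1287 CPM against 487 and 547 CPM (-1.43 ± 0.24), and DESeq2 called it. Bst2 (tetherin), a membrane protein that retains budding virus, was at 1201, 4124 and 2867 against 862 and 970 CPM (-1.57 ± 0.50), and DESeq2 called it too. Ifit3, an antiviral RNA-binding complex member, was at 217, 865 and 345 against 149 and 153 CPM (-1.65 ± 0.60), and the endosomal restriction factor Ifitm3 at 1919, 4313 and 2343 against 1005 and 1614 CPM (-1.12 ± 0.41). In Bst2, Ifit3 and Ifitm3 the Kit-B6 samples spread widely, with sample 2 the highest, and the groups did not overlap. Irf9, a DNA-binding subunit of the complex that type I interferon activates, differed by -0.50 ± 0.18. Zbp1, a nucleic acid sensor, overlapped (-0.60 ± 0.34).

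Not every interferon-induced gene was lower. Irf1, a transcription factor that responds strongly to interferon gamma, was at 2154, 2184 and 2526 CPM in the Kit-B6 and 3198 and 3566 CPM in the Kit-W/sh samples (0.56 ± 0.16), above all Kit-B6 samples in both. Ido1, the tryptophan-degrading enzyme that interferon gamma induces, was at 45.8, 30.7 and 15.2 against 53.8 and 99.0 CPM (1.33 ± 0.55). Socs1, a feedback inhibitor of JAK kinases, was at 55.6, 111 and 130 against 153 and 171 CPM (0.71 ± 0.40). The GTPase Gbp2 (0.98 ± 0.53) and the CXCR3 ligands Cxcl9 (0.78 ± 0.65) and Cxcl10 (0.74 ± 0.63) had higher averages with overlapping groups. As background, Irf1, Ido1, Gbp2 and Cxcl9 are known as genes that interferon gamma induces; they were grouped here after their values were seen, so the grouping has no test.

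In all, 22 of 41 listed interferon-induced genes were measured and 21 were tested, 15 on the lower side and 6 on the higher, with a median of -0.69 against -0.01 over all genes. At an unadjusted p under 0.05, 11 were lower and 2 higher (6.69% and 3.99% of all genes), 12 were lower and 3 higher without overlap (14.3% and 15.1% of all genes), 1 was called by edgeR and 7 by DESeq2. Leaving out 1 library at a time gave medians of -0.86 to -0.61 and 6 to 13 lower genes at an unadjusted p under 0.05, with 13 without Kit-B6 sample 1 and 6 without Kit-W/sh sample 1. Without Kit-B6 sample 1, edgeR called 7 genes of the list, which is a description and no added support. Some interferon-induced genes outside the list were picked after their values were seen, so they add no support to its counts. Their groups did not overlap, as for 14.3% of all genes on the lower side. They were the DNA exonuclease Trex1 at 379, 657 and 592 against 321 and 302 CPM (-0.80 ± 0.27), the nuclear body protein Pml (-0.79 ± 0.24) and the RNA-editing enzyme Adar (-0.50 ± 0.19). Other interferon-induced genes outside the list were not counted.

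**Figure D2:**
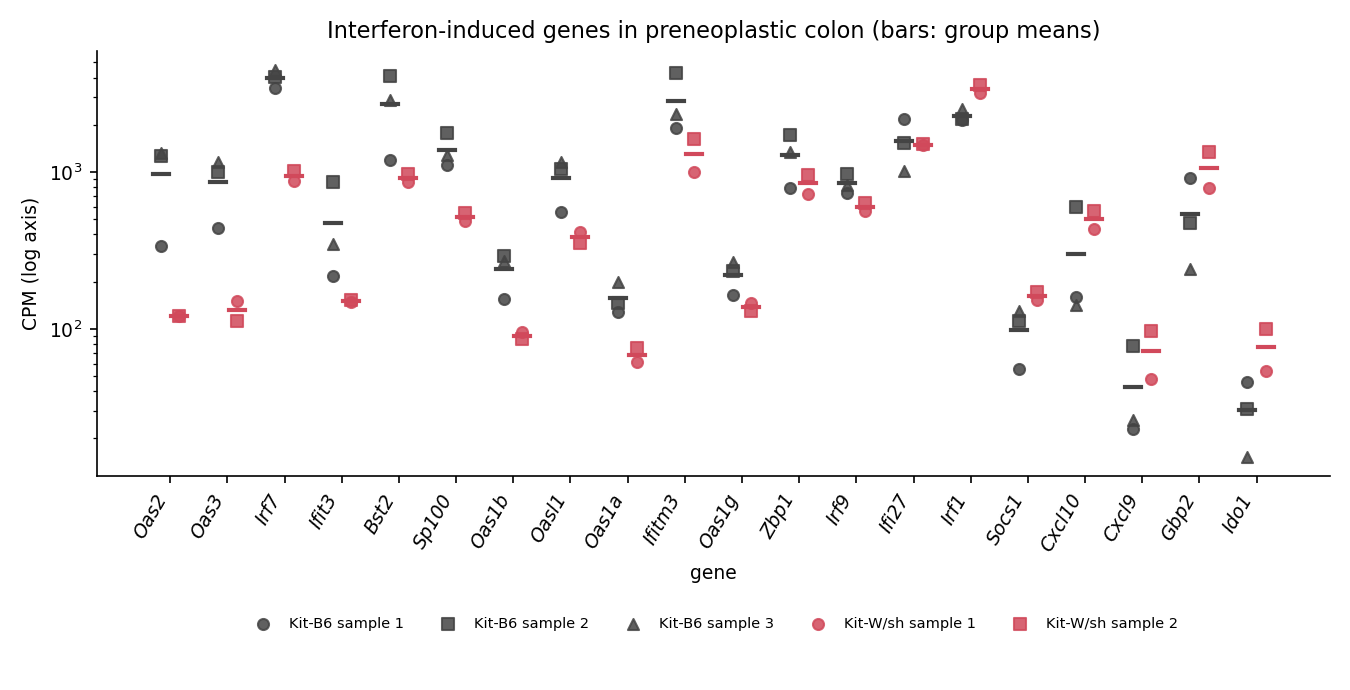
CPM on a log axis of 20 of the 21 interferon-induced genes tested, ordered from the lowest to the highest log2 fold change, with 1 point per sample (grey, Kit-B6; red, Kit-W/sh) and a bar at each group mean. For Irf7 the Kit-B6 points sit between 3434 and 4469 and the Kit-W/sh points at 872 and 1018; toward the right the order turns, with Irf1 at 3198 and 3566 CPM in Kit-W/sh above all Kit-B6 points.

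The interferons that act upstream were hardly detected. Ifna2 had 0 counts in all libraries, Ifnb1 gave 1, 0 and 1 counts in Kit-B6 and 0 and 0 in Kit-W/sh, and Ifng gave 1, 4 and 0 against 4 and 7 counts, all around the floor of 3 counts, so no difference in them was detectable at this depth. The interferon gamma receptor chain Ifngr1 was at 4694, 3617 and 4168 against 5106 and 4750 CPM (0.24 ± 0.18). Of 13 nucleic acid sensing genes tested, 6 were on the lower and 7 on the higher side, with a median of 0.02. An unadjusted p under 0.05 was reached by 1, on the lower side (6.69% of all genes). That gene was Irf5, a transcription factor downstream of endosomal Toll-like receptors, at 84.99, 128 and 105 against 49.0 and 48.3 CPM (-1.12 ± 0.34). Tlr7, an endosomal receptor for single-stranded RNA, was at 18.0, 61.3 and 27.6 against 12.7 and 15.7 CPM (-1.31 ± 0.64), and the RNA helicase sensor Ddx58 (RIG-I) overlapped (-0.93 ± 0.42).

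B cell markers moved with part of these genes. The summed level of the 15 measured B cell genes was 1973, 6065 and 3039 CPM in the Kit-B6 and 1862 and 1773 CPM in the Kit-W/sh samples, so Kit-B6 sample 1 lay near the Kit-W/sh samples, and Kit-B6 sample 2 was the highest as it was for Bst2, Ifit3 and Ifitm3. Kit-B6 sample 1 itself had 3434 CPM of Irf7 where the Kit-W/sh samples had 872 and 1018, and 335 CPM of Oas2 where they had 120 and 121. The part of B cells in the differences of the interferon-induced genes was not tested.

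The promoters of these genes are shown because interferon-induced transcription runs through a short element, the interferon-stimulated response element (ISRE), that IRF and STAT-containing complexes bind. Windows from 250 bases before to 50 bases after the transcription start, from RefSeq on GRCm38.p6, were matched by symbol for 583 of the 777 tested genes and searched on both strands for 2 copies of GAAA separated by any 2 bases. This motif was in 3.44% of all 32851 windows of the same length, in 5.46% of the windows of tested genes and in 9 of the 18 windows found for the interferon-induced genes (9 of 15 genes). Among those 9 genes, Bst2, Ifit3, Ifitm3, Oas1a, Oas1g and Oas3 had lower averages in Kit-W/sh and Cxcl10, Gbp2 and Socs1 higher ones, so a match did not go with one direction. The 160 bases before the start are printed 5′ to 3′ on the strand of the gene, with each match in capitals, for 3 lower genes with a match and for Irf7, in whose window these letters do not occur. In Oas3 the match begins 75 bases before the start, in Oas1a 2 overlapping matches begin 20 and 14 bases before it, and in Bst2 2 overlapping matches begin 130 and 124 bases before it. A match is a description of the letters and not evidence of binding.

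Irf7, chr7:141266425-141266584, minus strand: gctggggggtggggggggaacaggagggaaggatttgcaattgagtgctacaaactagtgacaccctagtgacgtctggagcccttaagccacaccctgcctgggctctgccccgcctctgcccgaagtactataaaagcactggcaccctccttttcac
Oas3, chr5:120777660-120777819, minus strand: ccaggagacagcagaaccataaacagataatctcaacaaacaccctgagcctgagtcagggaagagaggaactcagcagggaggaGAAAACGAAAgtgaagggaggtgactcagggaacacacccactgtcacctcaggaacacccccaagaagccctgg
Oas1a, chr5:120907526-120907685, minus strand: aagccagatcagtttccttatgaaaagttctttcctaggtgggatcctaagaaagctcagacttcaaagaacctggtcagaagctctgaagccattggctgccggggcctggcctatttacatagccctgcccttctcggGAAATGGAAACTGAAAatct
Bst2, chr8:71537473-71537632, minus strand: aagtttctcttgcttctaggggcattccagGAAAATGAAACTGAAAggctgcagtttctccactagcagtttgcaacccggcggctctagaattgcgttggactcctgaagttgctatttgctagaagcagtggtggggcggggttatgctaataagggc

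MHC class I molecules present peptides to CD8 T cells and natural killer cells, and their genes are induced by interferons. Chains of the surface molecule had lower averages in Kit-W/sh, while the transporter Tap1 and the proteasome genes lay around the median of all genes. B2m, the light chain shared by all class I molecules, was at 45660, 46280 and 41120 CPM in the Kit-B6 and at 24230 and 24860 CPM in the Kit-W/sh samples (-0.85 ± 0.19). It was narrow within each group, with Kit-B6 sample 1 beside the other Kit-B6 samples, and DESeq2 called it (adjusted p = 0.000311). H2-K1, a classical heavy chain, was at 13060, 8999 and 8602 against 6021 and 6660 CPM (-0.69 ± 0.24). Among nonclassical heavy chains, H2-T24 was at 208, 962 and 551 against 108 and 100 CPM (-2.46 ± 0.64, called by DESeq2), H2-Q6 differed by -1.25 ± 0.38 and H2-T22 by -0.66 ± 0.20, each without overlap. Heavy chains are near-identical in sequence, so reads may be shared among these amplicons.

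The peptide transporter Tap1 was at 322, 449 and 315 against 362 and 350 CPM (-0.02 ± 0.23, and 0.01 without scaling factors). The interferon-induced immunoproteasome subunits Psmb9 (0.22 ± 0.29) and Psmb10 (0.27 ± 0.20) had higher averages in Kit-W/sh. Calr, calreticulin, which chaperones class I heavy chains and other glycoproteins, was at 37.6, 27.4 and 45.6 against 94.9 and 93.0 CPM (1.34 ± 0.37), above all Kit-B6 samples. Of 23 tested class I presentation genes 18 were on the lower side, 5 lower and 1 higher had an unadjusted p under 0.05 (6.69% and 3.99% of all genes), 8 lower and 4 higher did not overlap (14.3% and 15.1% of all genes), and the median was -0.18. A list of proteasome subunits and regulators, drawn up after the panel was seen, had 44 tested genes between -0.36 and 0.65, with 23 lower, 21 higher, a median of 0.00 and 0 at an unadjusted p under 0.05. The spread of that list was thus narrow beside that of the class I presentation genes, which ran from -2.46 to 1.34.

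The ISRE letters were in the promoter windows of 3 of 19 class I presentation genes that had one, B2m, Erap1 (an aminopeptidase that trims peptides) and H2-T22. The B2m promoter is shown because this gene had little spread within each group, with the ISRE match alone in capitals, starting 139 bases before the start.

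B2m, chr2:122147527-122147686, plus strand: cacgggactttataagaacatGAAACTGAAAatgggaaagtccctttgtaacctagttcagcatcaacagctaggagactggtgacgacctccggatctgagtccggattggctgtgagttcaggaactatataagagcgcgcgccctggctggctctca

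MHC class II genes, which antigen-presenting cells use to show peptides to CD4 T cells, divided into a high and a low set. The abundant genes H2-Aa at 10330, 7243 and 3376 against 9826 and 12450 CPM (0.67 ± 0.44), H2-Ab1 (0.63 ± 0.38) and the invariant chain Cd74 (0.52 ± 0.46) overlapped, with Kit-B6 sample 3 lowest in H2-Aa. H2-Oa, a chain of the peptide-loading modulator made mainly in B cells, was at 16.3, 157 and 62.1 against 14.2 and 14.5 CPM (-2.43 ± 0.96), and H2-Eb2, which is outside the list, was at 27.8, 284 and 130 against 22.2 and 15.7 CPM (-2.96 ± 0.98, called by DESeq2). For H2-Oa and H2-Eb2, Kit-B6 sample 1 lay close to the Kit-W/sh samples and samples 2 and 3 lay far above. Of the 8 tested class II genes 3 were lower and 5 higher, with a median of 0.31.

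Kit-B6 samples 2 and 3 were also the highest in the B cell genes. Ms4a1 (CD20) was at 26.1, 1006 and 304 CPM in the Kit-B6 and 69.6 and 21.7 CPM in the Kit-W/sh samples (-3.30 ± 1.42). The transcription factor Pax5 (-2.68 ± 1.21), the inhibitory receptor Cd22 (-2.60 ± 1.05) and the follicle-homing receptor Cxcr5 (-2.78 ± 1.11) overlapped likewise, because of Kit-B6 sample 1. Cxcl13, the chemokine that organises B cell follicles, was at 116, 773 and 294 against 77.5 and 96.6 CPM (-2.17 ± 0.79), and Cd72, a B cell coreceptor, differed by -1.80 ± 0.75, both without overlap. All 14 tested B cell genes were on the lower side, with a median of -2.05 and 3 at an unadjusted p under 0.05 (6.69% of all genes), and 4 did not overlap (14.3% of all genes). The median was -0.90 without Kit-B6 sample 2 and -2.53 without Kit-B6 sample 1, and the number at an unadjusted p under 0.05 was then 0 and 12. edgeR called 0 of the 14, and DESeq2 called 0 as well.

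On the higher side, chemokines that bind the neutrophil receptor CXCR2 had some of the largest differences. Cxcl5, made largely by epithelium, was at 68.7, 56.5 and 17.9 CPM in the Kit-B6 and 229 and 360 CPM in the Kit-W/sh samples (2.63 ± 0.55). Cxcl1 was at 45.8, 50.04 and 16.6 against 130 and 290 CPM (2.49 ± 0.56). Cxcl2 gave 0, 3.23 and 1.38 against 17.4 and 16.9 CPM (3.33 ± 0.78), which rests on 25 counts over the Kit-W/sh libraries and 3 over the Kit-B6 libraries, a ratio of 11.2 with a 95% exact interval of 3.40 to 57.7 that covers counting error only. All 3 lay above every Kit-B6 sample in both Kit-W/sh samples, and Kit-B6 sample 3 was the lowest for Cxcl5 and Cxcl1. DESeq2 called Cxcl5 and Cxcl1, and leaving out 1 library at a time kept the median of these 3 genes between 2.01 and 2.92. Cxcl2 met the count minimum through the Kit-W/sh libraries alone, which fixed its side. It therefore adds no support to the count or the median of the list. The remaining CXCR2 ligands on the panel, Cxcl3, Ppbp and Cxcl15, gave at most 14 counts in any library and were not tested. In the fit of all 17 libraries their preneoplastic differences were 0.94 for Cxcl3, 0.82 for Cxcl15 and -0.63 for Ppbp.

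Neutrophils themselves were scarcely read. Cxcr1 and the granule enzyme Mpo had 0 counts in all 5 libraries, Cxcr2 gave 0, 1 and 0 counts in Kit-B6 and 0 and 2 in Kit-W/sh, Csf3r gave 5, 4 and 4 against 3 and 7, and Fpr1 gave 2, 0 and 0 against 1 and 2. The summed level of the 7 measured neutrophil genes was 53.9, 61.3 and 44.2 CPM against 33.2 and 36.2 CPM, most of it from the integrin Itgam, which macrophages also make (29.4, 38.7 and 31.8 against 17.4 and 18.1 CPM, -0.90 ± 0.41). No rise of neutrophil genes was therefore detectable beside the higher chemokines at this depth.

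Several genes of the NF-kB route also averaged higher. Nfkbia, the NF-kB inhibitor that NF-kB itself induces, was at 1630, 1722 and 1356 against 2571 and 2850 CPM (0.79 ± 0.17), and DESeq2 called it (adjusted p = 0.0214). Cd14, the coreceptor for bacterial lipopolysaccharide, was at 533, 588 and 398 against 767 and 841 CPM (0.67 ± 0.20). Tnf, a principal inducer of NF-kB, was at 88.3, 103 and 58.0 against 130 and 176 CPM (0.88 ± 0.35), and the groups did not overlap for Il1b (0.80 ± 0.48). Ccl2, a chemokine for monocytes, was at 73.5, 42.0 and 48.3 against 94.9 and 145 CPM (1.14 ± 0.39). Of 8 tested surface Toll-like receptor and NF-kB genes, 6 were on the higher side and 2 had an unadjusted p under 0.05 (3.99% of all genes), with a median of 0.18. Chemokines and receptors other than CXCR2 ligands, the list that holds Ccl2, were not one-sided. Of its 21 tested genes 11 were lower and 10 higher, with a median of -0.008.

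Among cytokines that act on or come from the epithelium, Il22 and Il18 averaged higher and Il33 lower. Il22, a lymphocyte cytokine that acts on epithelium through STAT3, was at 0, 4.84 and 1.38 CPM in the Kit-B6 and 34.8 and 21.7 CPM in the Kit-W/sh samples (3.66 ± 0.83), from 40 counts against 4, a ratio of 13.4 (95% exact interval 4.84 to 51.5, counting error only). Il22 met the count minimum through the Kit-W/sh libraries alone, which fixed its side. Il17a, which often accompanies Il22, gave 1, 0 and 3 counts against 5 and 14, a ratio of 6.36 (2.11 to 25.7), and was below the minimum for testing. Il18, an epithelial cytokine of the interleukin 1 family, was at 5853, 3135 and 2357 against 9377 and 7785 CPM (1.18 ± 0.39). It was the gene edgeR called on the higher side without Kit-B6 sample 1 (1.64, adjusted p = 0.0162), which adds no support. Stat3 was at 1071, 836 and 836 against 1263 and 1377 CPM (0.53 ± 0.17), and the membrane mucin Muc1 at 70.3, 40.4 and 17.9 against 120 and 122 CPM (1.503 ± 0.547). For each of these genes both Kit-W/sh samples lay above all Kit-B6 samples, and for Il18, Stat3 and Muc1 Kit-B6 sample 1 was the nearest to them. Of the inflammatory cytokine list 4 genes were tested, 3 of them higher, and the lower one was the alarmin Il33 at 32.7, 82.3 and 27.6 against 23.7 and 32.6 CPM (-0.74 ± 0.60). Of 10 tested type 17 genes 4 were higher and 6 lower, with a median of -0.27.

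**Figure D3:**
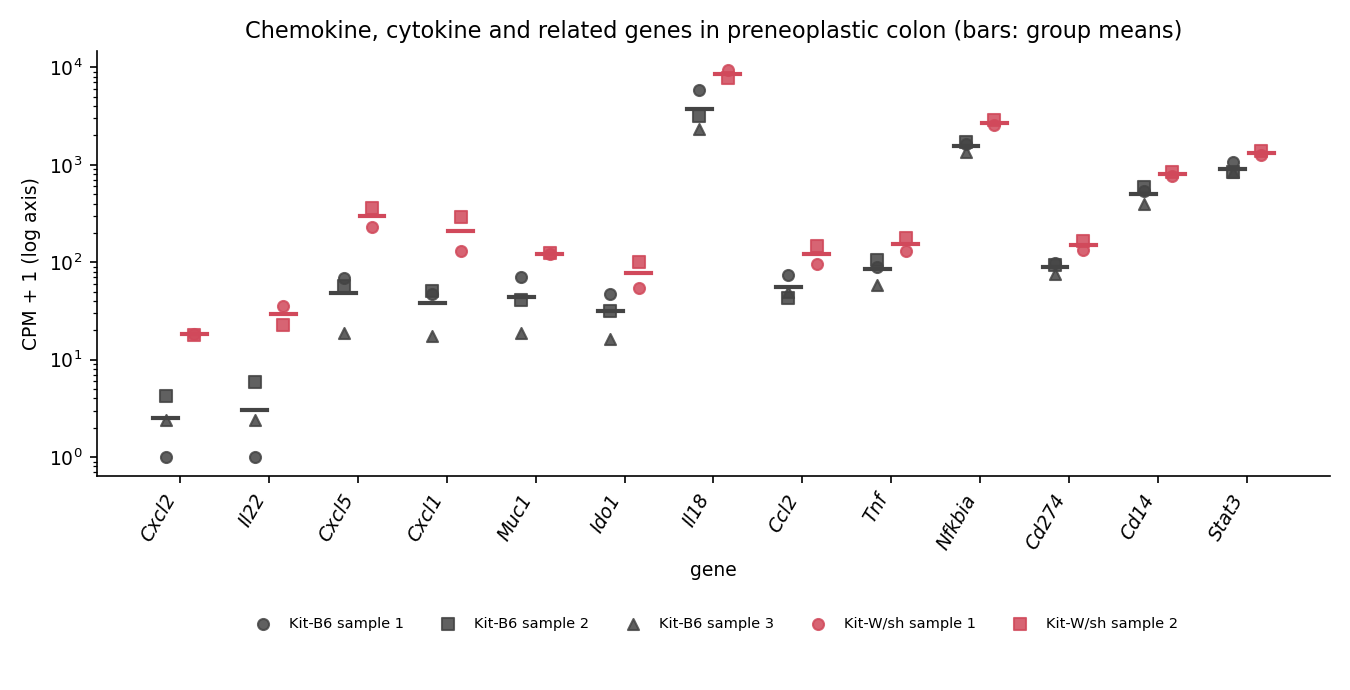
CPM + 1 on a log axis of 13 chemokine, cytokine and related genes, with 1 point per sample (grey, Kit-B6; red, Kit-W/sh) and a bar at each group mean. The genes were picked with their values known, and Il33, which averaged lower, is not shown. Both Kit-W/sh points lie above all Kit-B6 points in every gene shown, as they do in 15.1% of all genes tested. The genes run from Il22 and Cxcl2, which Kit-B6 sample 1 lacks, to Stat3 at 1263 and 1377 CPM.

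The promoters of Cxcl1, Cxcl2 and Nfkbia are shown because NF-kB binds a short kappaB element in such genes. The letters GGG, any 2 bases, TT, any 1 base and CC in a row, searched on both strands, were in 4.79% of all 32851 windows, in 8.12% of the windows of tested genes and in the windows of both CXCR2 ligands that had one, Cxcl1 and Cxcl2. Of the surface Toll-like receptor and NF-kB genes with a window, 2 of 5 had the letters, Nfkbia and Ikbkg (a subunit of the IkB kinase), and of the interferon-induced genes 2 of 15, Cxcl9 and Cxcl10. They were also in 5 of 19 class I presentation genes, B2m, H2-K1 and H2-Q6 among them, which had lower averages in Kit-W/sh, so this match did not go with one direction either. The matches, in capitals, start 89 and 71 bases before the start in Cxcl1, 97 and 78 bases in Cxcl2 and 29 bases in Nfkbia, and those at 89 and 29 read on the opposite strand.

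Cxcl1, chr5:90891085-90891244, plus strand: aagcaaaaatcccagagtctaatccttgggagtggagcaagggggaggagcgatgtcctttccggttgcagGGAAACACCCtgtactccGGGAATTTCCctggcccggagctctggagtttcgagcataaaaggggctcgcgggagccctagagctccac
Cxcl2, chr5:90903739-90903898, plus strand: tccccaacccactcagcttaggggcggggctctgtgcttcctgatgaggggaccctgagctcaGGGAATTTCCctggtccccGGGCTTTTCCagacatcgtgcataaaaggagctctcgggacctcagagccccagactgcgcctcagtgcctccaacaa
Nfkbia, chr12:55492648-55492807, minus strand: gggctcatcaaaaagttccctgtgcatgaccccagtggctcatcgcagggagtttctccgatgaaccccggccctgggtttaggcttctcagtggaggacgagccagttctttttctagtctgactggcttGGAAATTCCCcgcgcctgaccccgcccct

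Genes of cell stress and death receptors included several on the higher side. Tnfrsf10b, the mouse TRAIL death receptor, was at 121, 124 and 166 against 329 and 231 CPM (1.03 ± 0.29), and the survival factor Bcl2 at 261, 268 and 285 against 392 and 369 CPM (0.49 ± 0.18). The chaperone Dnajb1 was at 1389, 1966 and 1646 against 2674 and 2910 CPM (0.74 ± 0.19), and the splicing factor Srsf7 differed by 0.71 ± 0.17. For these 4 genes the groups did not overlap, as for 15.1% of all genes on the higher side. Dnajb1 and Srsf7 are outside the apoptosis and p53 list and were named for their small p. Of 10 tested apoptosis and p53 genes 8 were on the higher side and 2 had an unadjusted p under 0.05 (3.99% of all genes), with a median of 0.16.

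Eosinophil genes were low in number and lower in Kit-W/sh. Ccr3, the eotaxin receptor of eosinophils that basophils and mast cells also carry, was at 14.7, 16.1 and 26.2 CPM in the Kit-B6 and at 1.58 and 3.62 CPM in the Kit-W/sh samples (-2.75 ± 0.66), the latter at or below 3 counts per library. Siglecf, an eosinophil lectin, was at 22.9, 38.7 and 58.0 against 22.2 and 14.5 CPM (-1.13 ± 0.55). The granule protein Prg2, at 9.81, 53.3 and 59.4 against 19.0 and 21.7 CPM, and the eotaxin Ccl11 (-1.12 ± 0.67) overlapped. All 4 tested genes of the list were on the lower side, 1 at an unadjusted p under 0.05 and 2 without overlap (6.69% and 14.3% of all genes), with a median of -1.13. Ccr3 met the count minimum through the Kit-B6 libraries alone, which fixed its side.

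Macrophage genes lay mostly on the lower side. Csf1r, the receptor that macrophages need for survival, was at 172, 202 and 278 against 96.5 and 144 CPM (-0.85 ± 0.34), and the NADPH oxidase chain Cybb, also made by B cells and neutrophils, at 86.6, 332 and 173 against 53.8 and 70.0 CPM (-1.67 ± 0.60). Of 15 tested monocyte and macrophage genes 12 were lower, 2 of them at an unadjusted p under 0.05 and without overlap (6.69% and 14.3% of all genes), with a median of -0.53. The mean log2(CPM + 1) of these genes overlapped between the genotypes, at 6.33, 6.89 and 6.79 in Kit-B6 and 5.96 and 6.39 in Kit-W/sh. Apoe, Pla2g7 and Apod are outside the list. Apoe, a lipid-carrying protein abundant in macrophages, was at 3918, 5006 and 4651 against 1812 and 2807 CPM (-0.97 ± 0.25), and Pla2g7, a secreted phospholipase of macrophages, differed by -0.90 ± 0.27. Apod, apolipoprotein D, was at 75.2, 98.5 and 89.8 against 20.6 and 30.2 CPM (-1.78 ± 0.40). DESeq2 called Apoe and Apod, and in both the Kit-B6 samples lay close together.

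Few T cell genes differed beyond the spread of the samples. Cd4 was at 27.8, 59.7 and 42.8 against 12.7 and 24.1 CPM (-1.21 ± 0.54), the 1 gene of the list without overlap (14.3% of all genes on the lower side). The adhesion receptor Cd2 (-1.47 ± 0.78) and the kinase Lck (-0.88 ± 0.52) overlapped. Of 17 tested T cell genes 15 were on the lower side and 0 had an unadjusted p under 0.05, with a median of -0.43 that was 0.17 without Kit-B6 sample 2. Of 10 tested cytotoxic lymphocyte genes 8 were on the higher side, also with 0 at an unadjusted p under 0.05, among them the chemokine Ccl5 at 139, 173 and 85.6 against 316 and 163 CPM (0.85 ± 0.42) and the protease Ctsw (0.46 ± 0.39).

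Among checkpoint genes, Lgals9 and Cd274 went in opposite directions. Lgals9 (galectin 9), a ligand of the inhibitory receptor TIM-3, was at 4160, 7141 and 7157 CPM in the Kit-B6 and at 2408 and 2724 CPM in the Kit-W/sh samples (-1.26 ± 0.29), and DESeq2 called it (adjusted p = 0.00354). Lag3, an inhibitory receptor of T cells, was at 11.4, 16.1 and 19.3 against 6.33 and 6.04 CPM (-1.32 ± 0.53). It met the count minimum through the Kit-B6 libraries alone, which fixed its side. Cd274 (PD-L1) was at 96.4, 92.0 and 74.6 against 133 and 163 CPM (0.76 ± 0.29). The groups did not overlap for these 3 genes. Of the 20 tested genes of the list 13 were on the lower side, with a median of -0.40, and 4 lower and 2 higher did not overlap (14.3% and 15.1% of all genes).

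Several epithelial genes had large but uneven differences. Tmigd1, an adhesion protein of differentiated gut epithelium, was at 551, 1982 and 3180 against 329 and 314 CPM (-2.57 ± 0.71), and Mal, a membrane protein of apical transport, at 136, 80.7 and 221 against 36.4 and 32.6 CPM (-2.08 ± 0.50). Emp1, an epithelial membrane protein, was at 1022, 7356 and 13570 against 1361 and 1231 CPM (-2.50 ± 0.97), and Ceacam12, an adhesion molecule with close relatives, at 14.7, 274 and 231 against 38.0 and 30.2 CPM (-2.35 ± 1.09). In Emp1 and Ceacam12, Kit-B6 sample 1 lay below both Kit-W/sh samples, so the difference rests on Kit-B6 samples 2 and 3. edgeR called both genes, and Tmigd1, when sample 1 was left out, which adds no support. Cda, cytidine deaminase, was at 685, 546 and 815 against 385 and 349 CPM (-0.90 ± 0.21). Car4, the carbonic anhydrase of mature colonocytes, varied most in Kit-B6, at 82750, 23140 and 29640 against 52840 and 53970 CPM (0.24 ± 0.55, and -0.07 without Kit-B6 sample 2). Of the 5 tested colonocyte genes 2 were lower and 3 higher, with a median of 0.04 that was -0.02 without Kit-B6 sample 2. DESeq2 called Tmigd1, Mal and Cda.

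To see whether these differences were particular to the preneoplastic stage, the genotype difference was compared with that in tumors in 1 fit of all 17 libraries, where stage cannot be told apart from age, number of injections and tissue. edgeR called 0 of 869 genes for the difference between the stages (0%), with 63 (7.25%) at an unadjusted p under 0.05, and it called 0 of 869 genes between genotypes within tumors. H2-T24 had the smallest p: its genotype difference was -2.44 in preneoplastic colon and 0.14 ± 0.32 in tumors, a difference of -2.58 ± 0.63 (edgeR adjusted p = 0.5155). DESeq2 called it alone among all genes (-2.57, adjusted p = 0.0372). Without Kit-B6 sample 1 edgeR called H2-T24 (-2.94, adjusted p = 0.0269) and the proteoglycan Gpc4 (1.51, adjusted p = 0.0179). These calls add no support, because that sample was left out for lying near the Kit-W/sh samples. Oas2 differed by -2.99 in preneoplastic colon and by 0.01 ± 0.46 in tumors, Lgals9 by -1.24 and 0.18 ± 0.19, and Ccr3 by -2.76 and 0.68 ± 0.45. Il18 went the other way, at 1.21 in preneoplastic colon and -0.46 ± 0.28 in tumors. For Irf7 the tumor difference was -0.75 ± 0.40 and the difference between stages -1.30 ± 0.76.

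Cxcl1, Cxcl2, Cxcl5 and Nfkbia averaged higher in Kit-W/sh at both stages. In tumors the genotype difference was 2.05 ± 0.60 for Cxcl1, 2.41 ± 0.56 for Cxcl2, 0.87 ± 0.42 for Cxcl5 and 0.72 ± 0.22 for Nfkbia, none of them called. Cxcl5 had tumor levels far above the preneoplastic ones, with a median of 5072 CPM in Kit-B6 tumors and 9615 CPM in Kit-W/sh tumors. The library labelled Kit-W/sh tumor 2 went against its label in its mast cell genes, and the tumor differences above include it. Over the Kit-W/sh tumors Cpa3 had a median of 3.12 CPM and a maximum of 459.6 CPM. Without that library edgeR again called 0 of 865 genes between the stages. The differences between stages were then -2.57 for H2-T24, -0.96 for Irf7 and -2.93 for Oas2. They were -1.35 for Lgals9, -3.22 for Ccr3 and 1.705 for Il18.

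**Figure D4:**
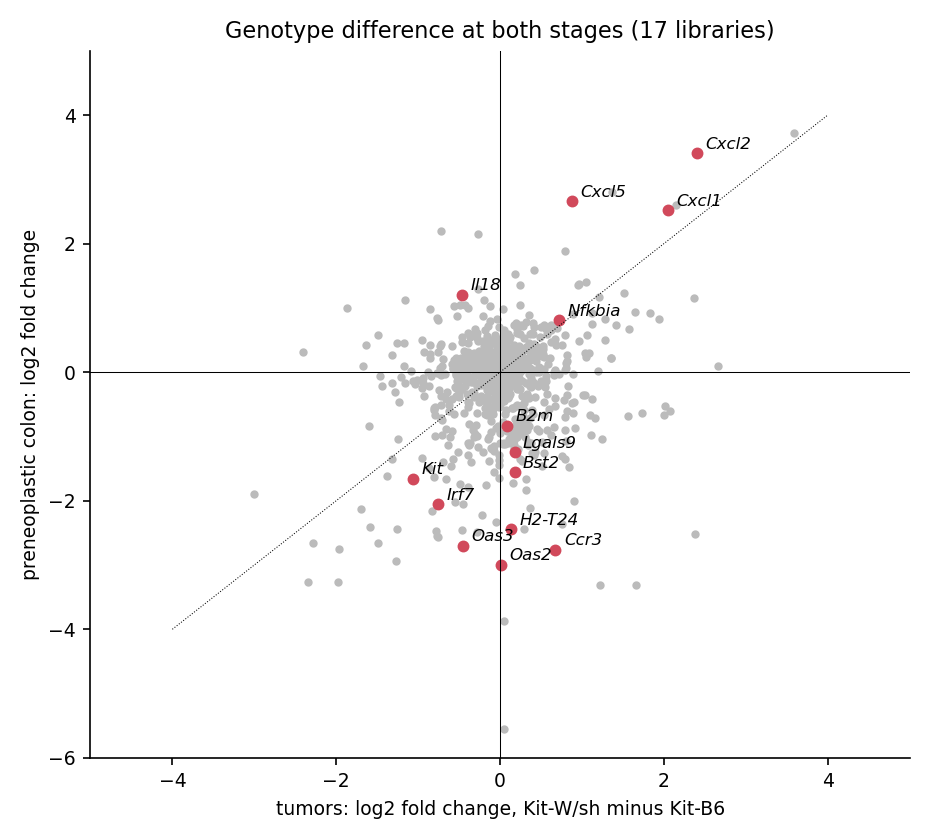
Each point is 1 of 869 genes, with the log2 fold change of Kit-W/sh over Kit-B6 in tumors (6 and 6 samples) on the x axis and in preneoplastic colon (2 and 3 samples) on the y axis, both from 1 fit; the dotted line marks equal differences and named genes are red. Oas2, H2-T24, Lgals9 and Bst2 lie near 0 on the tumor axis and below -1 on the preneoplastic axis, while Cxcl1 and Nfkbia lie near the dotted line.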

How the data were processed

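Per the labels' protocols, RNA from frozen colon tissue was read with a QIAseq targeted amplicon panel of mouse immuno-oncology genes on a MiSeq. The authors deposited 1 table of whole-number counts for each sample. Whether these count reads or molecular tags, and the aligner and filters, are not given in the sources used here, and amplified reads are not independent molecules, so count floors and intervals cover counting error only. The submitters' processing notes name mm9 as genome build, and DESeq2 with no version. The tables carry no coordinates. Of 993 entries, 988 were genes and 5 were control amplicons with 0 counts, which were left out. In these 5 samples 52 of the 988 genes had 0 counts throughout.

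Counts were tested in R 4.3.3 with edgeR 4.0.16 (TMM scaling, filterByExpr at a count of at least 10 and a total of at least 15, two-sided quasi-likelihood F test with robust dispersion, 5 libraries). A gene that met the count minimum in the libraries of 1 genotype only, such as Cxcl2, Il22, Ccr3 or Lag3, had its side fixed by this filter. P-values were adjusted by Benjamini-Hochberg over all genes tested, and 0.05 was the threshold. The stage comparison used 1 fit of 17 libraries with 4 groups. Libraries of 1 group always differed beyond counting noise, at a chi-square per degree of freedom of 11.69 to 77.35, and all were kept. DESeq2 1.42.0, other scalings and filters, a block on the sample number and leaving out each library were alternatives. Levels are CPM after TMM scaling. The 33 gene lists were described by counts and medians and not tested, and only 370 of their 739 entries were measured. Promoter windows came from RefSeq (GRCm38.p6), which is another build than the authors', and were matched by symbol only.

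The genes and lists were chosen with earlier results of these data known. The text names Kit and mast cell genes, genes called, the 15 genes with the smallest p in each direction, up to 5 genes per list with the smallest p, the CXCR2 ligands and reference genes. Genes outside this rule, chosen after their values were seen, were Acacb, Adar, Ceacam12, Csf3r, Cxcl9, Cxcl10, Cxcr1, Cxcr2, Emp1, Erap1, Fpr1, Gbp2, H2-Eb2, H2-K1, Ido1, Ifit3, Ifitm3, Ifna2, Ifnb1, Ifng, Il17a, Irf9, Mapre3, Mpo, Ms4a1, Oas1a, Oas1c, Oas1g, Pax5, Pla2g7, Pml, Psmb9, Psmb10, Socs1, Tap1, Tmigd1, Trex1 and Zbp1. Values of some genes are left out here.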

Additional observations from a re-analysis of the deposited data

Results flagged for a closer look

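The tumor groups that entered the stage comparison were checked for stray samples in H2-T24, Lgals9, Ccr3, Oas2, Il18, Oas3, Bst2, Irf7, Cxcl5 and B2m only. Of these, 2 genes had a sample far from the others of its group, at a gap that chance gives in about 1 of 20 groups. A gap of this kind was therefore to be expected by chance somewhere among the genes and groups checked. H2-T24 was at 136 CPM in Kit-W/sh tumor 3, where the median of that group was 80.0 CPM. Oas2 was at 200 CPM in Kit-B6 tumor 6, where the median was 49.3 CPM. The preneoplastic groups of 3 and 2 samples are too small for this check.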

How the results depend on the processing

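edgeR's 1 call between genotypes became 20 with DESeq2 (17 lower, 3 higher) and 26 with scaling by the reference genes Tfrc and Rpl13a (21 lower, 5 higher). It became 0 without scaling factors (Irf7 adjusted p = 0.0553), with all 17 libraries in the fit (0.489) and with the replicate block. Leaving out 1 library gave 0 to 16 calls, 0 to 15 lower and 0 to 1 higher, with 16 without Kit-B6 sample 1. Kit passed with DESeq2 (-1.67, adjusted p = 0.0017), with the reference gene scaling (-1.80, adjusted p = 0.00557) and without Kit-B6 sample 1, and leaving out 1 library gave -1.88 to -1.40. Sample numbers are shared between the genotypes for only 2 pairs, whose deviations from their group means correlated at -0.174 and -0.228. The deviations of the 2 Kit-W/sh samples are exact opposites, so these correlations cannot decide whether the numbers pair the samples. The replicate block gave 0 calls, 34 genes at an unadjusted p under 0.05, -1.98 for Irf7 (edgeR adjusted p = 0.783) and -1.37 for Kit. The stage comparison gave 1 call with DESeq2 and 0 to 2 when 1 preneoplastic library was left out. Genes near 0 changed sign. Tap1 was at 0.01 without scaling factors and 0 in the fit of 17 libraries, Epcam and Tfrc at -0.02 with reference gene scaling, and Hpgds at 0.02 and Rpl13a at -0.10 with the replicate block. Leaving out 1 library gave ranges of -0.85 to 0.27 for Gata2, -0.24 to 0.15 for Hpgds, -0.14 to 0.16 for Tap1, -0.03 to 0.13 for Epcam, -0.07 to 1.02 for Car4, -0.05 to 0.11 for Tfrc and -0.12 to 0.15 for Rpl13a. The median of all genes lay between -0.07 and 0.03 under the scalings tried. The cause of these changes was not tested.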

Other observations

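Of 10 tested stroma and matrix genes 8 had lower averages in Kit-W/sh, with 0 at an unadjusted p under 0.05, 2 lower without overlap (14.3% of all genes) and a median of -0.21 that ran from -0.72 to 0.00 when 1 library was left out. Of 7 tested endothelial genes 4 were lower and 3 higher, with 0 at an unadjusted p under 0.05, 2 lower without overlap (14.3% of all genes) and a median of -0.08. All 4 tested cell division genes were on the higher side, with a median of 0.17 and a range of 0.02 to 0.40, and 0 had an unadjusted p under 0.05.

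The share of genes with small p-values differed between chromosomes, and whether it differed beyond chance was not tested. Chromosome 5 is described because its share was the highest. By the chromosomes of the RefSeq gene table, which held 776 of the 777 tested genes, chromosome 5 had 12 of 46 tested genes at an unadjusted p under 0.05 (26.1%, against 10.7% over all chromosomes), and the groups did not overlap for 45.7% of its genes, against 29.4%. Kit itself lies on chromosome 5. The other 11 were Oas1a, Oas1b, Oas2, Oas3 and Oasl1, the chemokines Cxcl1, Cxcl2, Cxcl5 and Cxcl13, the microtubule-binding protein Mapre3 at 298, 179 and 395 against 133 and 160 CPM (-0.98 ± 0.38), and Acacb, an acetyl-CoA carboxylase, at 84.99, 77.5 and 127 against 53.8 and 48.3 CPM (-0.92 ± 0.37). Of the 12 genes 9 were lower and 3 higher in Kit-W/sh. Chromosome 17, which holds the H2 genes, followed with 10 of 49 (20.4%), and chromosome 4 had the lowest share (2.63%). The Oas genes and the CXCR2 ligands are clustered families whose members are neighbours, so these genes are not independent of each other. Linkage to the Kit locus as a part of these differences was not tested.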
